A study of Homo sapiens with 6 samples.

Results

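The human tRNA genes for aspartate, glutamate, asparagine and glutamine were examined for RNA bound by 2 tagged HSP70 chaperones. They were taken from the RefSeq gene table for GRCh38 as nuclear tRNA genes whose symbols start with TRD-, TRE-, TRN- or TRQ-. The rule gave 69 of 443 nuclear tRNA genes. Of these, 68 have a chromosome position and could be set against the peaks: 13 aspartate, 15 glutamate, 21 asparagine and 19 glutamine genes. TRN-GTT26-1 lies on a scaffold of chromosome 1 that the table does not name, and it was not analysed here. Across the 4 peak lists, 188 of 9974 peaks overlapped 1 of the 68 genes by at least 1 bp.

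The libraries came from FLASH-seq, in which ultraviolet light fixes RNA to proteins in living cells and the RNA held by 1 purified protein is sequenced. The cells were HEK293 Flp-In T-Rex, an established human embryonic kidney line that carries a transgene under a tetracycline switch. Both baits, HSPA1A and HSPA8, carried a 3xFLAG-HBH tag for 2 rounds of purification and were induced with 1 µg/ml tetracycline, so the bait was made in addition to the HSP70 proteins of the cell. Each bait had 2 biological replicates with a peak list each, and the GFP libraries of the series were not analysed here. Without a control bait or a measure of RNA level, a more abundant tRNA and a tRNA bound more often per molecule cannot be told apart.

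tRNAs carry amino acids to the ribosome and read codons through an anticodon near the middle of the molecule. RNA polymerase III transcribes their genes from promoter elements inside the gene, after which the leader and trailer are cut off and the ends CCA are added to the 3′ side. Aspartate and glutamate are the acidic amino acids, and asparagine and glutamine are their amide forms. Aspartate and asparagine tRNAs share a modified guanosine, queuosine, at the first anticodon base. In a symbol such as TRD-GTC2-8, the letters after the dash give the anticodon in DNA letters, the next number marks a distinct mature sequence, and the last number marks the gene copy. Copies with the same middle number share their mature sequence, so a peak on one of them is uncertain between the copies. The 68 genes form 33 such sequences, of which 22 have 1 copy.

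The lists held 2744 and 2059 peaks for HSPA1A and 3131 and 2040 for HSPA8, for replicates 1 and 2. Each peak has a whole-number score from the authors whose meaning is not stated, with a list median of 10, 13, 10 and 22 in the same order. Scores were therefore turned into percentiles within their own list, where 100 is the highest. HSPA8 replicate 2 held the fewest peaks on tRNA genes, and values that rest on it are also given without it.

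Most of the acidic and amide genes carried a peak: 57 of 68 had one in at least 1 list, against 55.5% of all placed nuclear tRNA genes. In the order HSPA1A replicates 1 and 2, then HSPA8 replicates 1 and 2, which is kept for all sets of 4 values, 55, 54, 45 and 20 of the 68 genes had a peak. These are 80.9%, 79.4%, 66.2% and 29.4% of the genes. Over all 429 placed nuclear tRNA genes, the share with a peak was 40.6%, 35.4%, 40.8% and 13.1%. Over the 361 other tRNA genes it was 33.0%, 27.1%, 36% and 9.97%. The 68 genes were above the other tRNA genes in each of the 4 lists, by 47.9, 52.3, 30.2 and 19.4 percentage points. The mean excess was 37.4 percentage points (SD 15.3, n = 4 lists; exact sign-flip permutation, two-sided, p = 0.125, the smallest that 4 lists allow). With the aspartate genes left out, the excess was 43.4, 47.4, 22.2 and 2.75 percentage points, so in HSPA8 replicate 2 most of it rested on aspartate. Asparagine was below the other tRNA genes in HSPA8 replicate 1, at 33.3%. Glutamate and glutamine were below them in HSPA8 replicate 2, at 0%. By mean share over the lists, aspartate ranked 1, glutamate 2, glutamine 4 and asparagine 9 of the 22 amino acid letters in the symbols. Proline, not a member, equalled glutamate at 65%. Peaks on the 68 genes also ranked higher. The mean percentile of the best peak per gene was 64.6, 61.3, 63.2 and 46.5, against 38.9, 29.6, 42.3 and 13.4 on other tRNA genes. In HSPA8 replicate 2 the higher mean came from aspartate, at 64.4, since the 7 asparagine genes with a peak there had a mean of 13.2.

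A peak was found in all 4 lists at 20 of the 68 genes, against 7.69% of all placed nuclear tRNA genes. These were the 13 aspartate genes and 7 asparagine genes. A further 25 genes, 10 for glutamate and 15 for glutamine, had a peak in 3 lists and lacked one in HSPA8 replicate 2, a pattern held by 13.1% of all placed tRNA genes. At 7 genes both replicates of HSPA1A had a peak and those of HSPA8 had none (background 5.36%). TRN-GTT2-2 and TRN-GTT2-4 are among these, although 6 of the 8 copies of their mature sequence had a peak in each HSPA8 list. For that sequence the count therefore does not separate the baits. The reverse was seen at 0 of the 68 and at 0% of all placed tRNA genes. A peak in 1 list alone was seen at 5 of the 68 genes, against 62 of all 429 placed nuclear tRNA genes. No peak was present at 11 of the 68, against 191 of the 429.

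**Figure D1:**
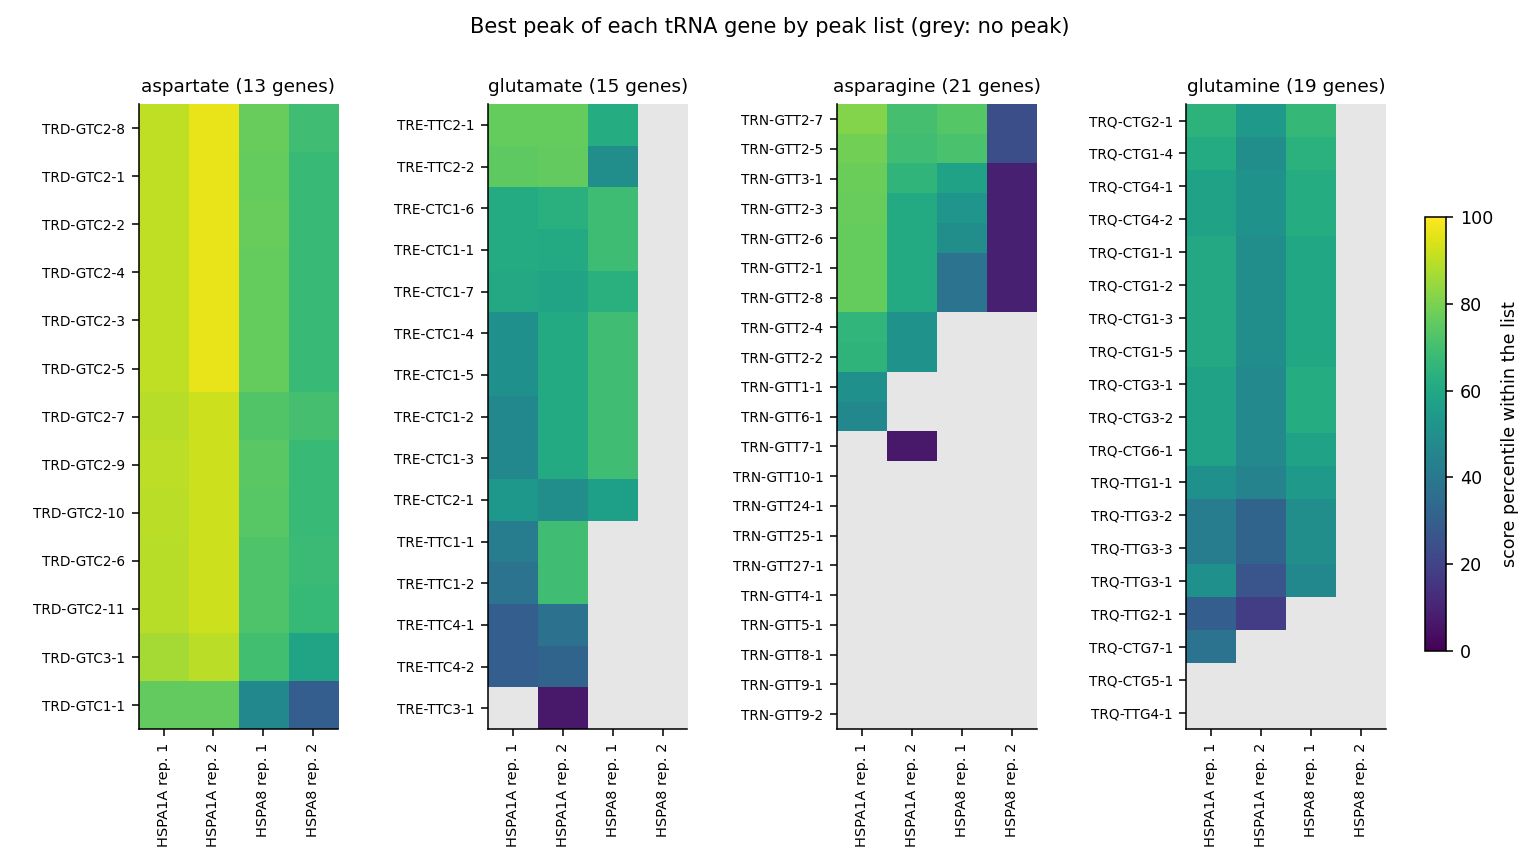
Score percentile of the best peak (colour, 0 to 100 within each list) for each of the 68 tRNA genes (rows) in each of the 4 peak lists (columns), with grey for no peak. All 13 aspartate genes and 7 asparagine genes are coloured in every column, while the glutamate and glutamine panels are grey for HSPA8 replicate 2.

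Aspartate genes stood out by both presence and rank. All 13 carried a peak in every list, and aspartate had the highest share of genes with a peak, averaged over the lists, among the 22 amino acid letters of the symbols. They also had the highest median score of the 4 amino acids. The median best score per gene was 331 and 186 with HSPA1A against 75 and 53 with HSPA8, at median percentiles of 89.9, 92.5, 74.5 and 67.8. By comparison, no gene among the 361 other tRNA genes scored above 37, 17, 35 and 10.

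The 11 copies of TRD-GTC2, spread over chromosomes 1, 6, 12 and 17, had best scores of 294 to 354 and 184 to 361 with HSPA1A. With HSPA8 they had 54 to 96 and 51 to 60. TRD-GTC2-1, on chromosome 1 from 161440825 to 161440896, had scores of 354 and 361 with HSPA1A and 95 and 53 with HSPA8. TRD-GTC2-2, from 161448243 to 161448314, had 354 and 359 against 96 and 53. TRD-GTC2-8, on chromosome 12 from 96036021 to 96036092 inside the protein-coding gene LTA4H, had 354 and 360 against 96 and 57. These 3 copies had the highest mean percentiles of the aspartate genes, and peaks on copies are not independent readings.

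The 2 aspartate sequences with 1 copy are the ones whose peaks do not share a mature sequence with another gene. TRD-GTC3-1, on chromosome 6 from 27583457 to 27583528, had scores of 197, 152, 38 and 34, at percentiles of 86.5, 89.7, 69.6 and 58.6. TRD-GTC1-1, on chromosome 12 from 98503503 to 98503574 inside the non-coding gene LINC02453, had 51, 48, 9 and 11. Both scored higher in each HSPA1A list than in either HSPA8 list, although scores of different lists share no stated scale, and TRD-GTC1-1 was the lowest aspartate gene in every list.

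Asparagine genes divided by copy. The 21 placed genes cover 13 sequences, and a peak was present at 11, 10, 7 and 7 genes in the 4 lists, or 52.4%, 47.6%, 33.3% and 33.3%. The 8 copies of TRN-GTT2 all had a peak with HSPA1A in both replicates, and 6 of them had one in all 4 lists. TRN-GTT3-1, a sequence with 1 copy on chromosome 1 from 144419267 to 144419340, was the seventh gene in all 4 lists. Its scores were 63, 24, 15 and 6, at percentiles of 77.5, 65.3, 57.8 and 8.82, so it was high with HSPA1A and near the bottom of HSPA8 replicate 2.

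TRN-GTT2-7, on chromosome 1 from 145287766 to 145287839, had the highest asparagine scores, of 104, 34, 65 and 9. TRN-GTT2-5, on chromosome 17 from 38751781 to 38751854, followed with 77, 31, 47 and 9. These 2 copies kept percentiles of 73.6 and 71.4 in HSPA8 replicate 1, where TRN-GTT2-1, TRN-GTT2-8, TRN-GTT2-6 and TRN-GTT2-3 had 38.2, 38.2, 49.5 and 52.1. TRN-GTT2-2 and TRN-GTT2-4 had scores of 20 and 14 and of 21 and 14 with HSPA1A, and no peak with HSPA8. A further 3 asparagine genes had a peak in 1 HSPA1A list each: TRN-GTT1-1 and TRN-GTT6-1 in replicate 1 with scores of 10 and 9, and TRN-GTT7-1 in replicate 2 with 5. The other 9 placed asparagine genes had no peak in any list.

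Glutamate genes had a peak at 14, 15, 10 and 0 of 15 genes, so that HSPA8 replicate 2 held none. A count of 0 among the 2040 peaks of that list allows a share of up to 0.147%. The anticodons differed. All 8 TRE-CTC genes had a peak in the first 3 lists, at median best scores of 10.5, 20 and 36.5 and median percentiles of 51.9, 61.2 and 69.0. The 7 TRE-TTC genes had a peak at 6 and 7 genes with HSPA1A and at 2 and 0 with HSPA8. Counted by sequence, that was 3 and 4 of 4 with HSPA1A and 1 and 0 with HSPA8.

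TRE-TTC2-1, on chromosome 13 from 44917927 to 44917998, and TRE-TTC2-2, on chromosome 15 from 26082234 to 26082305, had the highest mean percentiles of the glutamate genes. Their best scores were 54, 49 and 19 and 48, 48 and 10 in the first 3 lists. TRE-CTC1-6, on chromosome 6 from 28982199 to 28982270, came next with 16, 22 and 36. Its percentiles were 61.6, 63.6 and 68.8, the highest being in HSPA8 replicate 1. TRE-TTC1-1, TRE-TTC1-2, TRE-TTC4-1 and TRE-TTC4-2 had a peak in each HSPA1A list and none with HSPA8. For TRE-TTC1-1, on chromosome 2 from 130337128 to 130337199, the HSPA1A replicates gave scores of 8 and 32. For TRE-TTC1-2, inside the protein-coding gene ELF1 on chromosome 13, they gave 7 and 31. For TRE-TTC4-1 they gave 6 and 9, and for TRE-TTC4-2 they gave 6 and 8. TRE-TTC3-1 had a peak in HSPA1A replicate 2 alone, with a score of 5.

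Glutamine genes had a peak at 17, 16, 15 and 0 of 19 genes, and the limit for HSPA8 replicate 2 is again 0.147% of its peaks. Their scores spanned a narrow range, from 6 to 19, from 6 to 15 and from 9 to 27 in the first 3 lists. TRQ-CTG2-1, on chromosome 6 from 27547752 to 27547823, was the highest, with scores of 19, 15 and 27 at percentiles of 64.6, 53.6 and 66.4. TRQ-CTG1-4, on chromosome 15 from 65869062 to 65869133, had 16, 13 and 22, and TRQ-CTG4-1, on chromosome 1 from 148265108 to 148265179, had 13, 14 and 19. For each of these 3 genes HSPA8 replicate 1 gave a higher percentile than either HSPA1A list. TRQ-CTG4-2, a copy of the TRQ-CTG4-1 sequence, had the same scores and tied with it in mean percentile.

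TRQ-CTG genes ranked above TRQ-TTG genes in each list that held them, at mean percentiles of 57.7 against 43.1, 49.6 against 30.8 and 61.5 against 49.9. TRQ-TTG2-1, inside the protein-coding gene SCAND3 on chromosome 6, had a score of 6 in each HSPA1A list and no peak with HSPA8. TRQ-CTG7-1 had a peak in HSPA1A replicate 1 alone, with a score of 7. TRQ-CTG5-1 and TRQ-TTG4-1 had none.

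**Figure D2:**
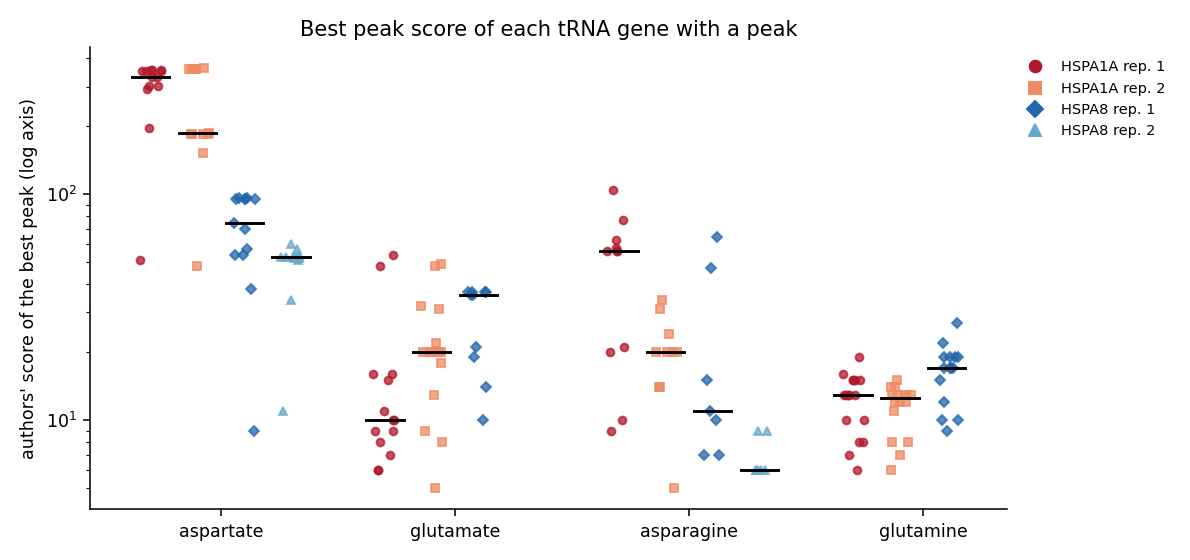
Authors' score of the best peak (log axis) of each tRNA gene with a peak, by amino acid and peak list, with 1 point a gene and a black line at the median. Aspartate genes reach 354, 361, 96 and 60 in the 4 lists, and glutamine genes stay at or under 27.

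Where a peak lay on the gene was read along the strand of the peak, counting nucleotides (nt) from the upstream end of the gene, because the gene table gives no strand. All 57 genes with a peak had their peaks on 1 strand, plus at 22 genes and minus at 35, including all 52 genes with peaks in 2 or more lists. The stretches below are given by amino acid as a description, and differences between amino acids were not tested. On TRD-GTC2 copies, aspartate peaks ran from nt 10 to 72 or 73 in HSPA1A replicate 1 and from nt 6 or 7 to nt 73, 74 or 75 in HSPA8 replicate 1. In HSPA1A replicate 2, 6 copies had 1 peak from nt 9 to 72 and 5 had a pair, from nt 9 to 32 and 33 to 71. Median aspartate peak width was 64, 39, 69 and 51 nt, and no aspartate peak began before nt 6. In HSPA8 replicate 2 the start was later for 10 of the 11 TRD-GTC2 copies, at nt 20 or 21, and TRD-GTC2-7 kept nt 10. The sequences with 1 copy differed. Peaks on TRD-GTC3-1 began at nt 35, 36, 35 and 34 and ended at nt 73, 71, 74 and 71. Peaks on TRD-GTC1-1 ran from nt 24 to 54, 24 to 54, 10 to 75 and 23 to 46.

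Asparagine peaks covered the second part of the gene. Their median start was nt 28, 28, 28 and 26 and their median end nt 75, 75, 77 and 75, on genes that are 74 nt long. No asparagine peak in any list began before nt 26. Of the covered nucleotides between nt 1 and 72, 83.4%, 79.7%, 83.2% and 77.5% lay after nt 36. In HSPA8 replicate 1, TRN-GTT2-7 and TRN-GTT2-5 were covered from nt 28 to 77, while TRN-GTT2-3 and TRN-GTT2-6 were covered from nt 35 to 81, past the gene end.

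Glutamine peaks lay in the middle. With HSPA1A the median start and end were nt 20 and 53 and nt 22 and 54, and 16 of 17 and 15 of 16 peaks ended by nt 55. In HSPA8 replicate 1 they were nt 32 and 70, and 7 of 15 ended by nt 55. The shift was not seen in every gene: TRQ-CTG1-1 was covered from nt 20 to 54, 22 to 54 and 19 to 55 in the first 3 lists. TRQ-CTG4-1 was covered from nt 24 to 53, 22 to 55 and 32 to 73. With no glutamine peak in HSPA8 replicate 2, the shift rests on 1 library and was not tested.

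Many glutamate peaks began at the first nucleotide. Of 20, 17 and 11 peaks in the first 3 lists, 10, 13 and 10 began at nt 1 or up to 1 nt before it. The 7 copies of TRE-CTC1 were covered from nt 1 to 75 in HSPA8 replicate 1 except TRE-CTC1-7, which was covered from nt 1 to 72. TRE-CTC2-1, a sequence with 1 copy on chromosome 1 from 248874248 to 248874319 inside the protein-coding gene PGBD2, was covered only over its first part, from nt 0, just upstream of the gene, to nt 43, and from nt 1 to 54 and 1 to 56.

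**Figure D3:**
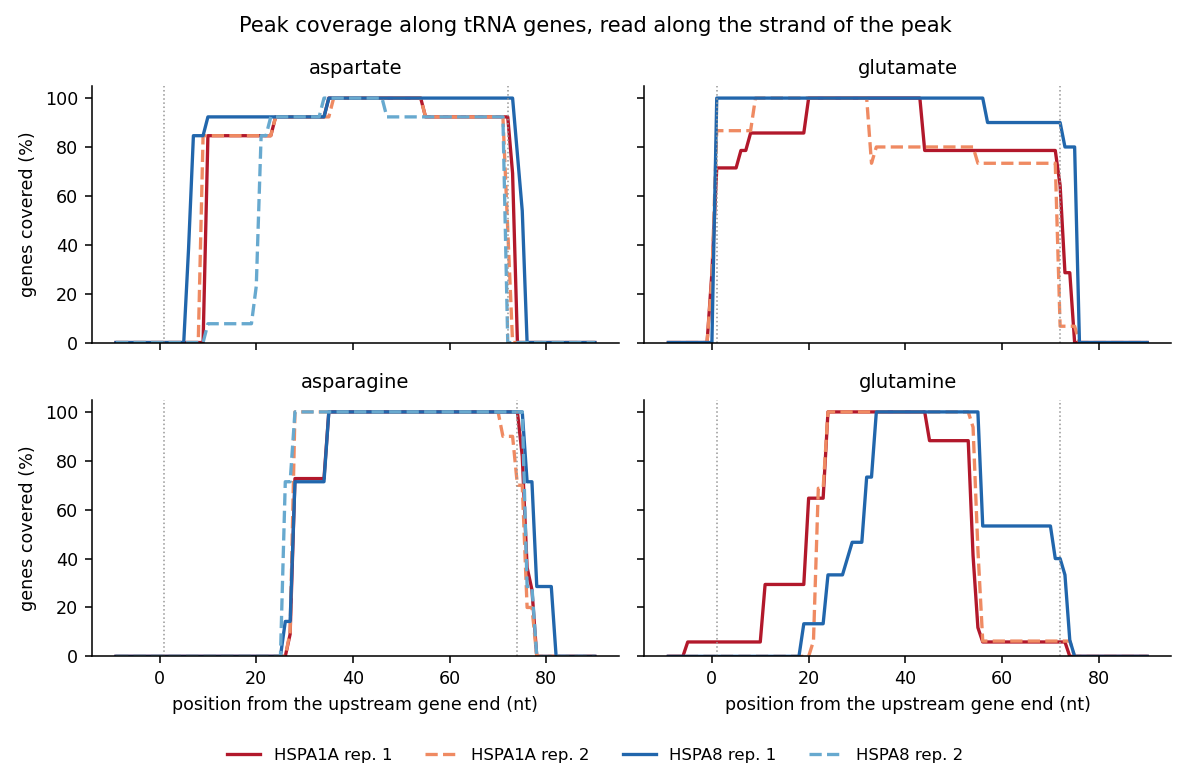
Percentage of the tRNA genes with a peak that are covered at each nucleotide, by amino acid (panels) and peak list (lines), counted from the upstream gene end along the strand of the peak, with dotted lines at the gene ends. Asparagine coverage starts at nt 26 or later in all 4 lists, and glutamine coverage with HSPA1A falls between nt 53 and 56, from 88.2% to 5.88% in replicate 1 and from 100% to 6.25% in replicate 2.

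Some genes carried a pair of adjoining peaks in place of 1 long one. This was seen in 14 of 174 gene and list combinations with a peak, 5 for aspartate and 9 for glutamate. All lay on copies of TRD-GTC2, TRE-CTC1 or TRE-TTC2, and peaks on copies are not independent readings. The TRD-GTC2 pairs were all in HSPA1A replicate 2 and the TRE-CTC1 pairs all in HSPA1A replicate 1. In each of the 14 the first peak ended at nt 32 or 33 and the second began at nt 33 or 34, with at most 1 nt between them. On TRE-TTC2-1 the pair ran from nt 1 to 33 and 34 to 71 in HSPA1A replicate 1, with scores of 27 and 54. In HSPA1A replicate 2 it ran from nt 1 to 32 and 34 to 71, with scores of 49 and 28, so the order of the scores turned between replicates. In HSPA8 replicate 1 this gene had 1 peak from nt 1 to 75. Pairs were present at 6, 7, 1 and 0 of the 68 genes in the 4 lists and at 0 of the 361 other tRNA genes in each list.

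Peaks kept close to the gene. On the downstream side they ran at most 3, 3, 7 and 3 nt past the gene end, and on the upstream side at most 6, 1, 0 and 0 nt. In the 100 bp on either side of the genes, outside them, the lists held 0, 0, 1 and 0 further peaks. Peaks past the downstream end numbered 23 of 61, 9 of 61, 33 of 46 and 7 of 20. Median peak width was 42, 39, 50 and 51 nt, against 48, 44, 57 and 51 over whole lists. Overlap between lists varied: at the 52 genes with a peak in both HSPA1A lists the median overlap was 95.4% of the joint stretch, and at the 20 genes with a peak in both HSPA8 lists it was 74.5%. Between baits, the median was 92.8% at 45 genes for the lists numbered 1 and 81.9% at 20 genes for the lists numbered 2. For the lists numbered 1 the median was 50.9% at the 15 glutamine genes, against 92.8%, 96.1% and 98% for aspartate, glutamate and asparagine. The smallest stretch shared by any pair of lists at a gene was 20 nt.

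The baits were then compared over lists. The sample numbers of the 2 baits lie in separate ranges, so bait cannot be told apart from anything else that differs between those libraries. As a share of all peaks, the 68 genes took 2.22% (95% Wilson interval 1.73 to 2.85) and 2.96% (2.31 to 3.79) with HSPA1A. With HSPA8 they took 1.47% (1.10 to 1.95) and 0.980% (0.636 to 1.51). The mean was 2.59% ± 0.523 (SD, n = 2) against 1.22% ± 0.346 (SD, n = 2). That is 1.37 percentage points more for HSPA1A, with a two-sided p of 0.333 by exact permutation, below which 4 lists cannot go. The lists of the 2 baits did not overlap, and the difference was larger than the spread between replicates. The baits did not overlap for the 361 other tRNA genes either. Those took 4.34% and 4.76% of peaks with HSPA1A against 4.15% and 1.76% with HSPA8. The lists do not all cover the same sequences, which changes the total that a share is taken of. On the chromosomes that all 4 lists share, the 68 genes took 2.59% on average with HSPA1A and 1.53% with HSPA8. That difference was 1.06 percentage points (exact permutation, p = 0.333). A share of tRNA peaks alone was chosen after seeing the data. On it the 68 genes took 33.9% and 38.4% with HSPA1A and 26.1% and 35.7% with HSPA8, and the baits overlapped (exact permutation, p = 0.667).

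The share of genes with a peak was 80.1% ± 1.04 on average with HSPA1A against 47.8% ± 26.0 with HSPA8 (SD over 2 lists each). The gap of 32.4 percentage points also had p = 0.333 by exact permutation. Without HSPA8 replicate 2 the difference fell to 14.0 percentage points. By amino acid the difference was 0 for aspartate, 63.3 for glutamate, 16.7 for asparagine and 47.4 for glutamine, in percentage points. The exact permutation p was 1, 0.333, 0.333 and 0.333, and 1, 0.444, 0.444 and 0.444 after Benjamini-Hochberg adjustment over the 4. Every aspartate gene had a peak in every list, so the share of genes was at its ceiling and could not show a bait difference there. Without HSPA8 replicate 2 the glutamine difference was 7.89, and glutamate stood at 96.7% with HSPA1A against 66.7%. The asparagine difference stayed at 16.7 with either HSPA8 list.

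**Figure D4:**
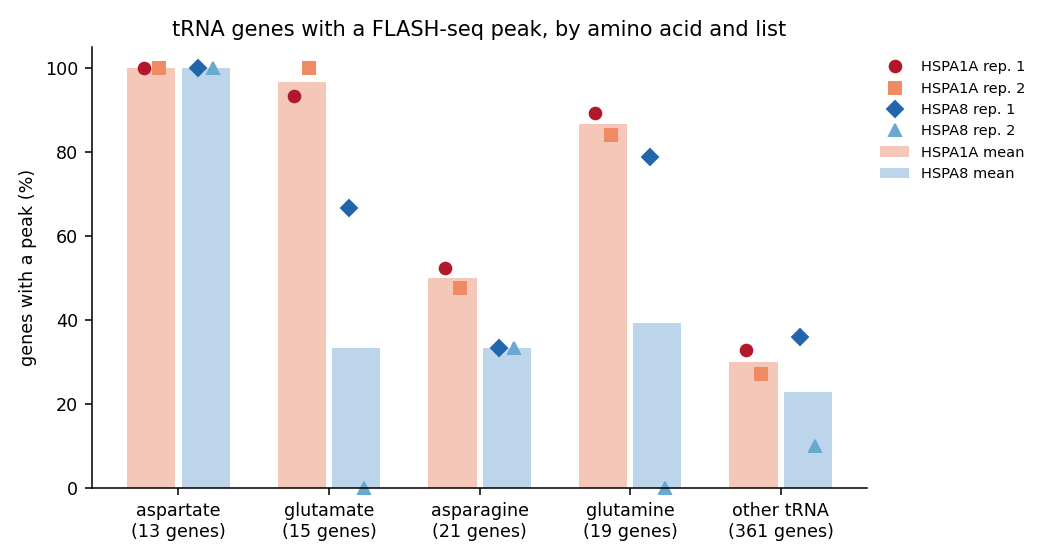
Percentage of tRNA genes with a peak for the 4 amino acids and for the 361 other nuclear tRNA genes, with a bar at the mean of each bait and a point for each of its 2 replicates. Aspartate is at 100% in all 4 lists, and the HSPA8 points of glutamate and glutamine lie apart, at 66.7% and 0% and at 78.9% and 0%.

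The mean percentile of the best peak over genes with a peak was 63.0 ± 2.34 with HSPA1A against 54.8 ± 11.8 with HSPA8, as SD over 2 lists each (p = 0.667 by exact permutation). On the chromosomes that all 4 lists share, the HSPA8 mean was 60.1 and the difference fell to 2.83. The difference turned to -0.237 without HSPA8 replicate 2. The genes behind it differ between lists. Over the 20 genes with a peak in all 4 lists, chosen after seeing the data, the mean percentile was 84.8 and 82.9 in the HSPA1A replicates, against 66.1 and 46.5 in those of HSPA8. There the baits did not overlap (exact permutation, p = 0.333, the smallest possible). These 20 genes form 5 sequences and were chosen by their peaks in the same lists. Their percentiles without ribosomal DNA and mitochondrial peaks, or on the chromosomes that all 4 lists share, were not computed.

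The genes are not spread evenly over the genome. Chromosome 1 holds 36 of the 68 and chromosome 6 holds 16. Of the 68, 53 lie between annotated genes, 4 inside protein-coding genes and 11 inside other genes only, with a peak in any list at 47, 4 and 6. On chromosome 1, 12 members lie between 161422093 and 161540314, where TRE-CTC1 and TRD-GTC2 copies alternate. From TRE-CTC1-2 to TRD-GTC2-5, each TRE-CTC1 copy starts 1015 or 1016 bp before a TRD-GTC2 copy. The 5 TRD-GTC2 copies among the 12 members, TRD-GTC2-1 included, had a peak in all 4 lists, and the 4 TRE-CTC1 copies had one in 3. In HSPA8 replicate 1, TRD-GTC2-2 had a score of 96 and the neighbouring TRE-CTC1-2 one of 37. In HSPA8 replicate 2 the scores of TRD-GTC2 copies there were 53, and no TRE-CTC1 copy had a peak.

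Other genes of the same pathways carried few peaks. Of 10 genes for the aminoacyl-tRNA synthetases of these amino acids and their partners, 1 had a peak in any list: AIMP2, a scaffold of the multisynthetase complex, in HSPA8 replicate 1 with a score of 7. Of 27 genes for enzymes and factors that act on tRNAs, 2 had a peak. These were TRNT1, which adds the CCA end, in HSPA8 replicate 1 with a score of 5, and GATB, a subunit of the mitochondrial enzyme that amidates glutamate on glutamine tRNA, in HSPA1A replicate 1 with a score of 5. Of 25 genes for RNA polymerase III and its factors, 2 had a peak, POLR1C and POLR1D, subunits shared with RNA polymerase I, both in HSPA8 replicate 1 with a score of 5. The POLR1C peak also overlapped XPO5 and RPS2P29. By list the 3 groups had 0, 0, 1 and 0, then 1, 0, 1 and 0, then 0, 0, 2 and 0 genes with a peak. Over all 58998 genes the share with a peak was 3.06%, 2.02%, 3.07% and 1.3%, and 4.94% in any list, so these counts are near the background. Annotated pseudogenes of the 4 tRNA families, 28 in number, carried 0 peaks in all 4 lists.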

How the data were processed

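Per the labels' protocols, PCR duplicates were merged through random adapter tags. Peaks were deposited by the authors as 1 list per replicate, with a strand and a whole-number score, and the peak caller, its threshold and the handling of reads that match several genes are not given in the sources used here. That handling sets whether near-identical tRNA copies share reads. The submitters' processing notes name Trim Galore 0.4.4, STAR 2.6.0b and deepTools and the build GRCh38. Positions are 1-based on GRCh38, and genes come from the RefSeq table for GRCh38.p14. No member matched the RefSeq sequence tables (0 of 69). Overlap of 1 bp counted, and strand was ignored because the gene table has none. The planned same-strand setting was not run. Position on the gene was planned on the plus strand, and reading it along the peak's strand was added after seeing the data.

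Baits were compared with exact permutation tests over the 6 orders of labels on 4 lists. Read depth is unknown, and Wilson intervals at 95% and limits for 0 peaks (3 counts) cover counting error only. Named genes are those with a peak in all 4 lists, those with a peak in both lists of 1 bait alone, and the 3 of highest mean percentile per amino acid. All other members named, such as TRQ-CTG1-1, TRE-CTC1-2, TRE-CTC1-7, the single-copy genes and those with a peak in 1 list or none, were chosen after their values were seen. The members and gene lists were chosen with earlier results of these data known. Alternatives were a higher score, equal list lengths, 20 bp of overlap, peak midpoints, merging within 50 bp, shared chromosomes, copies counted once, removal of ribosomal DNA and mitochondrial peaks, base pairs, each replicate left out and a replicate block. Analyses used Python 3.11.15 with pandas 2.3.3 for tables, scipy 1.17.1 and numpy 2.4.6 for tests, and matplotlib 3.10.9 for plots. The counting was tested on peaks planted on the 429 genes, of which 100% were recovered.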

Additional observations from a re-analysis of the deposited data

Results flagged for a closer look

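The 4 amino acids and each of their anticodons were scanned for sets above the other tRNA genes in both lists of 1 bait and below in both of the other. Only TRE-TTC passed, so its opposite signs follow from that rule. Relative to the other tRNA genes, the share of TRE-TTC genes with a peak was higher with HSPA1A and slightly lower with HSPA8. The share for TRE-TTC minus that for the other 361 genes was 52.8 and 72.9 percentage points with HSPA1A and -7.44 and -9.97 with HSPA8. The means differ by 71.5 percentage points. With HSPA8, 2 and 0 of 7 genes had a peak against 36% and 9.97% of the other genes, so both counts lie within 1 gene of the background share and give no direction of their own. The difference was not tested, and it rests on 7 genes that form 4 sequences.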

How the results depend on the processing

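Of 109 values under other settings, 1 reversed, 1 moved, and 107 stayed on their side of the threshold with no change of sign. Among these, the aspartate bait difference, 0 in the main setting and so without direction, was 7.69 percentage points with peaks scoring above the list median. The exact tests cannot reach 0.05, so an unchanged call says nothing about stability. The reversed value was the bait difference in mean percentile, 8.13 in the main setting. It ran from -0.237 (without HSPA8 replicate 2) to 16.5 over the settings that leave out 1 list. On the chromosomes that all 4 lists share it was 2.83, and without ribosomal DNA and mitochondrial peaks it was 1.68. The bait difference in the share of peaks ran from 0.998 to 1.74 percentage points with 1 list left out. The one that moved was the bait difference in median peak position along the plus strand, 7.64 percent of gene length. It was -5.21 along the strand of the peak (exact permutation, p = 0.667). The excess over other tRNA genes ranged from 27.0 percentage points with copies counted once to 43.4 without HSPA8 replicate 2. With peaks scoring above the list median, the glutamine difference between baits fell from 47.4 to 5.26 and the glutamate difference from 63.3 to 26.7. Labels name no shared day or batch. Deviations of same-numbered lists correlated at 0.0907 over 68 genes, a value that bears on pairing by replicate number and not on differences between baits. With the replicate block the difference in the share of peaks was 1.37 percentage points (p = 0.5 by exact sign-flip, which is the floor of that test), and no call changed.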
